A study of Oryza sativa with 4 samples.

Results

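Nitrate reductase (NR) and nitrite reductase (NiR) transcripts were followed in leaves of light-grown and etiolated rice (Oryza sativa indica, variety Panvel in the labels and Panvel1 in the study's methods) treated with nitrate or with water. They were read from 3 probes of 21495 on the array, chosen by name: A_71_P104314 for NR at LOC_Os02g53130, A_71_P120871 for NR at LOC_Os08g36480 and A_71_P102212 for NiR at LOC_Os01g25484. The scanner files describe the NR probes after a barley NR and the NiR probe as rice ferredoxin-nitrite reductase, but give no locus. The locus names come with the choice of the probes, were made by matching these arrays to the study's own tables, and are not independent of it.

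Each of 4 2-colour arrays carried nitrate-treated and water-treated RNA of the same condition, from 2 biological replicates in light and 2 in dark. Seedlings of 8 to 10 days were raised without nutrients, under a 12 h photoperiod (light) or in total darkness (dark), and nitrate was given at 120 mM, in the dark for the etiolated leaves. The labels give 2 h of treatment of whole plantlets at 25 °C, whereas the study's methods describe excised leaves floated on potassium nitrate or water for a shorter time after growth at a higher temperature. Leaves cut from the plant have no root supplying nitrate, which limits them as a model of uptake. For each channel the labels state the dye but leave its RNA unnamed. Channel 2 was read as nitrate, which is likely rather than settled: the deposited normalized ratios, described in the methods as signal over control, ran as channel 2 over channel 1 on every array (r = 0.985 to 0.991 across probes, which are not independent replicates). Were the channels exchanged, every nitrate-over-water sign and rank below would turn, and the water and nitrate levels and their shares would change places. On the reading used, nitrate carried Cy5 in replicate 1 and Cy3 in replicate 2 of each condition.

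NR reduces nitrate to nitrite in the cytosol with electrons from NAD(P)H, and it is a molybdenum enzyme that is a classical nitrate-inducible gene of plant leaves. NiR then reduces nitrite to ammonium in the plastid with electrons from reduced ferredoxin, and it carries a siroheme group. Light is a known regulator of both steps in green leaves, through gene expression and, for NR, also through the activity of the protein.

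On the 4 arrays, 75.5% to 79.0% of spots were well above background (the flag set by the scanner software) in each channel. Before background subtraction and dye balancing, the dyes of light replicate 2 were uneven. Its median spot brightness was 258 in the nitrate channel (Cy3) and 1263 in the water channel (Cy5), where 885 spots were saturated. The medians were 445 and 280 in light replicate 1, and 267 to 336 in the channels of the dark arrays. All 4 arrays lay on 1 slide and shared 1 scan time, and the labels name no batch of growth, extraction or labelling. The labelled tissue was checked against marker lists. Of 16 chlorophyll a/b binding protein probes, 13 were lower and 1 was higher in dark than in light water-treated leaves (14.4% and 14.6% of all probes were), with a summed normalized signal of 49220 to 72411 in dark against 437312 to 725750 in light. Of 3 probes found by a search for the RuBisCO small subunit, the subunit's own probe A_71_P106501 differed by a log2 ratio of 0.08, and 1 of the other 2, a RuBisCO activase, was lower in dark. Neither of the 2 probes of protochlorophyllide oxidoreductase, an enzyme known from etiolated leaves, was higher in dark, and 1 of them was lower. Of 9 probes of the root-specific RCc2 and RCc3 transcripts, 5 or 6 were well above background on both arrays in each group, and with nitrate 3 were lower in light (1.46% of all probes were) and 1 was higher in dark (1.81% of all probes were). Their summed signal ranged from 55098 to 69846 with nitrate and from 60369 to 66500 with water in light, and from 41880 to 42793 and from 55131 to 57525 in dark. Of 9 seed storage protein probes, 2 or 3 were well above background on both arrays of a group, and 2 were lower with nitrate in light (1.46% of all probes were), with summed signals of 1819 to 2276 against 2099 to 2528, and of 1557 to 1624 against 2246 to 2393 in dark. The part of these transcripts in the results below was not tested. In bulk leaf RNA, fewer cells of a type and less RNA per cell cannot be told apart.

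The transcript of NR at LOC_Os02g53130 (A_71_P104314) rose with nitrate in both conditions, and its ratio was larger in light. The processed signal is the brightness of a spot after the scanner software subtracted background and balanced the dyes. In light-grown leaves that of A_71_P104314 averaged 144 with water and 12397 with nitrate in replicate 1. In replicate 2 it averaged 200 with water and 15703 with nitrate. In etiolated leaves it averaged 330 with water and 3235 with nitrate in replicate 1, and 400 with water and 5278 with nitrate in replicate 2. Every nitrate channel thus exceeded every water channel, and the lowest nitrate signals and the highest water signals were both in the dark. The 2 spots of the probe on an array differed by at most 1.13-fold in the water channel and 1.03-fold in the nitrate channel, and all of them were well above background. After loess normalization the log2 ratio of nitrate over water was 6.44 and 6.32 on the light arrays and 3.29 and 3.72 on the dark arrays. The fitted ratio was 83.2-fold in light (log2 6.38 ± 0.17, limma's moderated SE, n = 2 arrays, adjusted p = 0.0146) and 11.3-fold in dark (3.5 ± 0.17, n = 2, adjusted p = 0.0475). Among the 15213 probes well above background in both channels on all arrays, this was the largest fitted ratio in each condition.

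For NR at LOC_Os08g36480 (A_71_P120871), the water-treated leaves already gave a bright signal. In light its processed signal averaged 4553 with water and 39349 with nitrate in replicate 1, and 5979 with water and 54370 with nitrate in replicate 2. In dark it averaged 8703 with water and 15824 with nitrate in replicate 1, and 7939 with water and 13788 with nitrate in replicate 2. The gap between the channels was therefore wide in light and narrow in dark, and no spot of this probe was saturated. These light values include a large dye correction. Before background subtraction and dye balancing, light replicate 2 averaged 11521 with water and 15602 with nitrate. Light replicate 1, with the dyes the other way round, averaged 1908 and 29666. The log2 ratios were 3.12 and 3.17 on the light arrays and 0.88 and 0.80 on the dark arrays, so the replicates lay close together. The fitted ratio was 8.84-fold in light (log2 3.14 ± 0.13, n = 2, adjusted p = 0.0216). In dark it was 1.79-fold (0.84 ± 0.13, n = 2, 95% interval 1.41 to 2.27, adjusted p = 0.113), which is below the fold threshold. The same probe stood at rank 8 of the 15213 measured ratios in light and at rank 348 in dark.

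**Figure D1:**
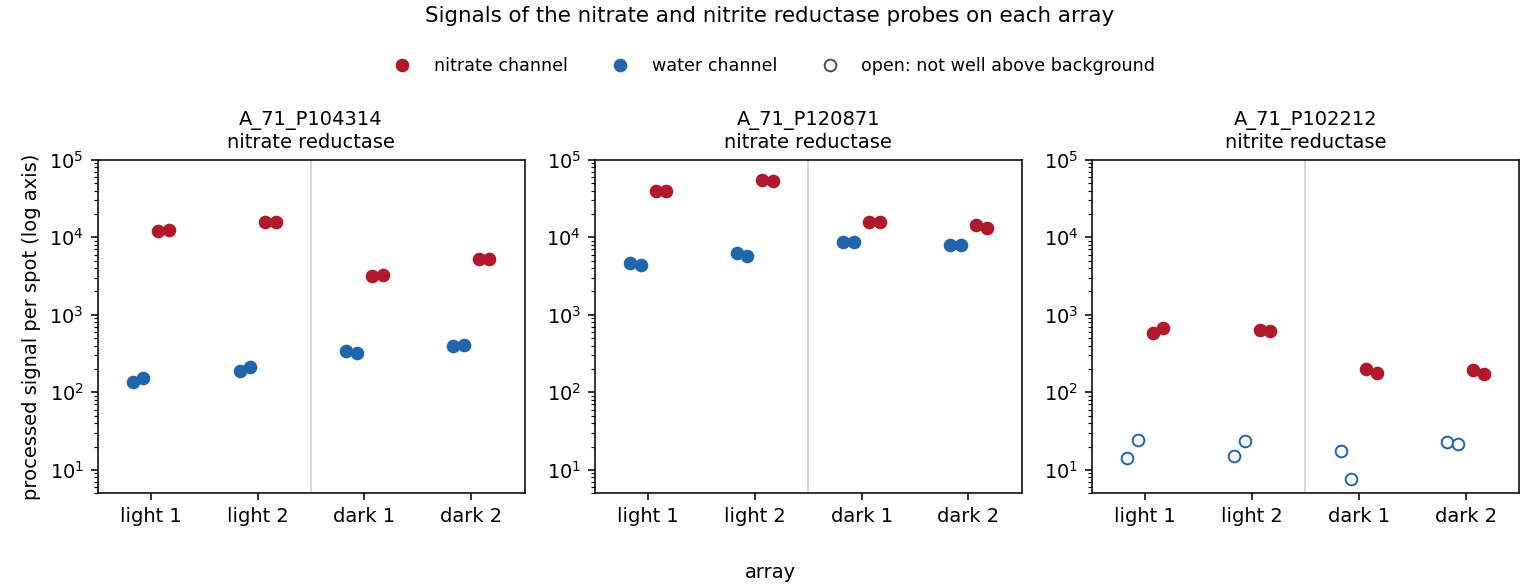
Processed signal of each spot (log axis) on the 4 arrays for the probes of NR (A_71_P104314 and A_71_P120871) and NiR (A_71_P102212), with nitrate in red and water in blue. Every water spot of the NiR probe is open, that is, not well above background, while the water spots of both NR probes are higher on the dark than on the light arrays.

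The NiR probe (A_71_P102212) gave a measurable signal only with nitrate. In light its nitrate channel averaged 628 in replicate 1 and 624 in replicate 2, and in dark 189 and 184. The water channel averaged 19.4 and 19.1 in light and 12.6 and 22.2 in dark, and none of these spots was well above background. The nitrate signals of the conditions, which are not scaled between arrays, did not overlap, whereas the water signals have no order. After normalization, nitrate levels lay higher in light than in dark without overlap for 36.0% of all probes. The 2 water spots of an array differed by up to 2.34-fold, against at most 1.13-fold in the nitrate channel. The log2 ratios, 5.07 and 5.08 on the light arrays and 4.05 and 3.05 on the dark arrays, therefore rest on a denominator that was not measured. Over an estimated floor for the water signal, the bound on the NiR ratio was 15.0-fold in light and 5.73-fold in dark. The adjusted p of limma's fitted ratios, not of the bounds, was 0.0296 in light and 0.0553 in dark. Each bound sets the mean normalized nitrate level against, on each array, the higher of the probe's own water level and the lowest water level among probes with both spots well above background. A signal not well above background can lie above that lowest level, so the bounds hold only for the floor used. The pair of bounds sets no order between the conditions. With the normexp background correction, which adds an offset of 50 to both channels, the log2 ratio was 2.21 in light and 0.92 in dark, the latter below the fold threshold, and the bounds were 4.19-fold and 1.90-fold.

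A probe was called where its log2 ratio reached 1 in size and its unadjusted p, by limma, did not exceed 0.05. By this rule 3 of 3 probes were called higher with nitrate in light, where 2.28% of all probes were (1.46% were lower), and 2 of 3 in dark, where 1.81% were (1.72% were lower). With the adjusted p in place of the unadjusted p, the counts were 3 of 3 in light (0.209% of all probes) and 1 of 3 in dark (0.135%), the latter being A_71_P104314. These 4 adjusted calls each held in 5 of 13 alternative settings and were lost in the others, among them the setting without moderation and each that left out an array. Only 2 arrays stand behind each condition, and their number limits the precision of every value here.

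**Figure D2:**
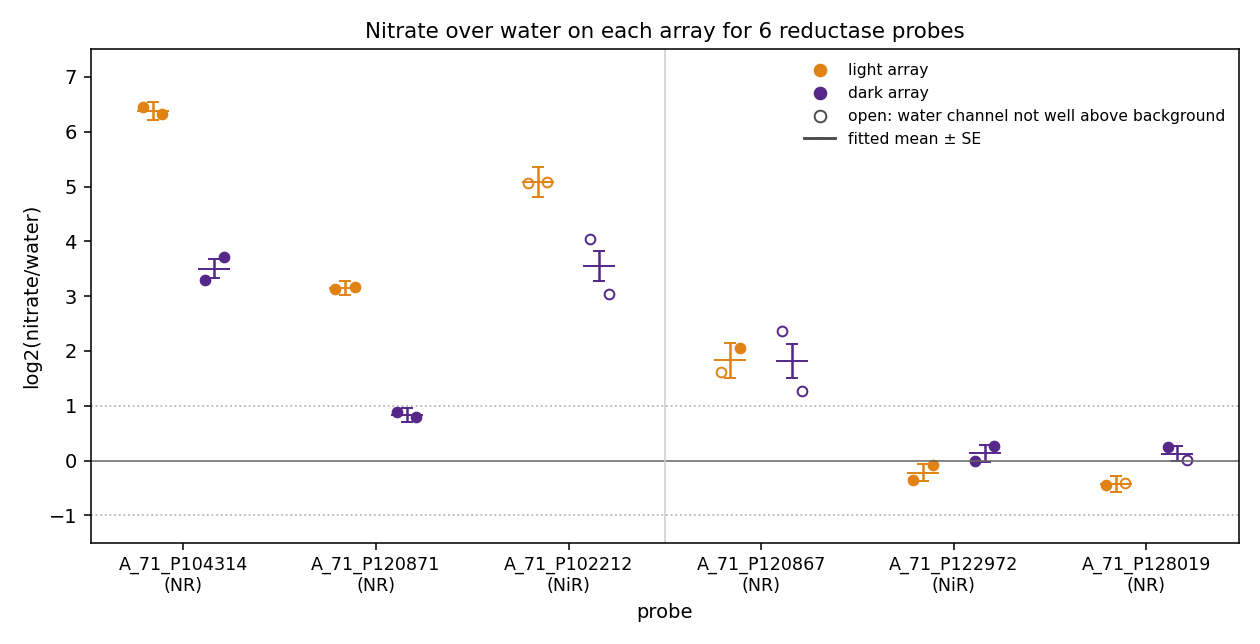
Log2(nitrate/water) on each array (points) with the fitted mean ± SE (bars) for the 3 chosen probes on the left and the 3 other probes described as NR or NiR on the right, light arrays in orange and dark arrays in purple. Dotted lines mark a log2 ratio of -1 and 1. The light arrays lie above the dark arrays for the 3 chosen probes (for NiR over an unmeasured water signal), but not for the others. The share of all probes with this order was not counted, so the order is not read as a trait of the chosen probes.

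The light and dark responses were set against each other as the dark ratio minus the light ratio. This difference was -2.88 ± 0.23 on the log2 scale for A_71_P104314 (95% interval -3.51 to -2.24, unadjusted p = 0.000171 by limma), a 7.34-fold smaller response in dark. For A_71_P120871 it was -2.31 ± 0.18 (-2.79 to -1.82, unadjusted p = 0.000144 by limma), a 4.94-fold smaller response. Both differences were among the lowest of the 15213 measured probes, at ranks 4 and 13 from the lowest. The fitted difference of NiR was -1.53 ± 0.39 (unadjusted p = 0.0147 by limma), taken over a water channel that was not well above background in either condition. It was no longer called without light replicate 1 (-1.54) or without light replicate 2 (-1.52), nor in a fit without moderation (-1.53), and it is given as a value only. By the unadjusted p, the 2 NR probes, for which the difference was measured, were called with the lower ratio in dark, where 3.54% of all probes were. Over all probes, limma's adjusted p = 0.0992 for both NR probes and adjusted p = 0.239 for NiR, and 0.00% of all probes passed (0 probes), against 6.51% (1400 probes) in either direction by the unadjusted rule.

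**Figure D3:**
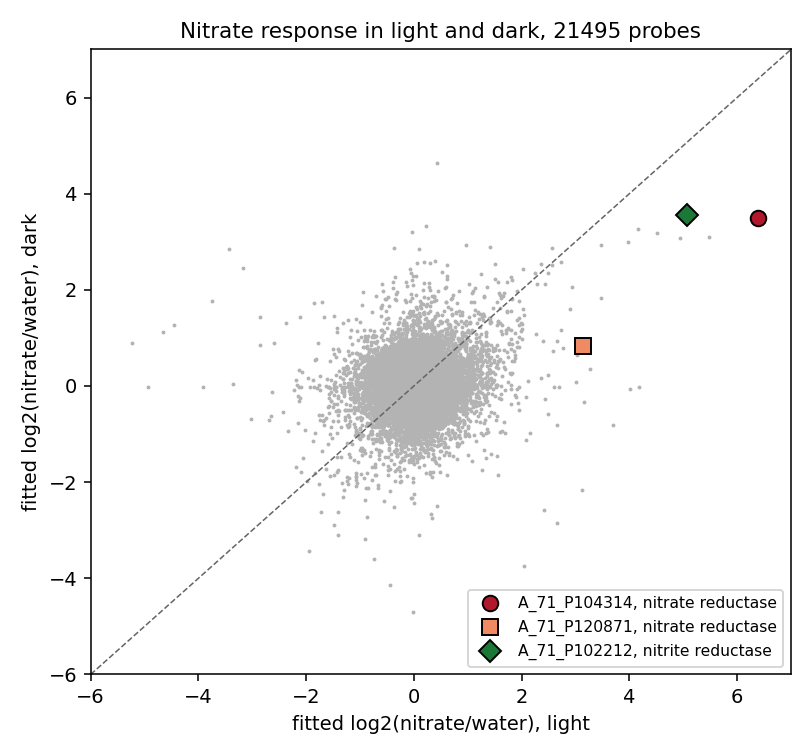
Fitted log2(nitrate/water) in light (horizontal) and dark (vertical) for 21495 probes in grey, with the probes of NR and NiR marked; the dashed line marks equal ratios. All 3 lie right of the line, A_71_P104314 at 6.38 and 3.5, A_71_P120871 at 3.14 and 0.84, and NiR at 5.08 and 3.55 over an unmeasured water signal.

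Which channel moved was asked by comparing dark with light leaves of the same treatment, in a fit of the separate channels. In water-treated leaves both NR transcripts were higher in dark. The normalized log2 level of A_71_P104314 with water was 6.96 and 7.10 in light and 8.81 and 8.94 in dark, a difference of 1.84 ± 0.20 (3.59-fold, 95% interval 2.57 to 5.03, adjusted p = 0.000718). For A_71_P120871 it was 11.94 and 12.15 in light and 13.40 and 13.21 in dark, a difference of 1.26 ± 0.17 (2.40-fold, 1.80 to 3.20, adjusted p = 0.00172). Neither probe's light and dark water levels overlapped. The arrays of dark lay above those of light, without overlap, for 37.9% of all probes in the water channel, and 14.6% were called higher in dark, so that the 2 of 2 NR probes stand against a large background of change. NiR gave no value here, because its water channel was not well above background in either condition.

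In nitrate-treated leaves all 3 transcripts were lower in dark. The nitrate level of A_71_P104314 was 13.40 and 13.41 in light and 12.10 and 12.65 in dark, a difference of -1.03 ± 0.20 (2.04-fold lower, 95% interval 1.46 to 2.86, adjusted p = 0.00671). That of A_71_P120871 was 15.06 and 15.32 in light and 14.28 and 14.01 in dark, a difference of -1.04 ± 0.17 (2.06-fold lower, 1.55 to 2.75, adjusted p = 0.0034). That of NiR was 9.1 and 8.84 in light and 7.88 and 7.84 in dark, a difference of -1.11 ± 0.32 (2.15-fold lower, 1.25 to 3.70, adjusted p = 0.0307). No probe's light and dark nitrate levels overlapped, which held with light above dark for 36.0% of all probes, and 3 of 3 were called lower in dark, where 15.9% of all probes were. These calls stand at the fold threshold. That of A_71_P104314 was lost without dark replicate 1 (-0.75), that of A_71_P120871 without light replicate 2 (-0.90) or dark replicate 2 (-0.91), and that of NiR without light replicate 1 (-0.98) or light replicate 2 (-1.23, past the fold but not the p threshold) and with the normexp correction (-0.65).

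**Figure D4:**
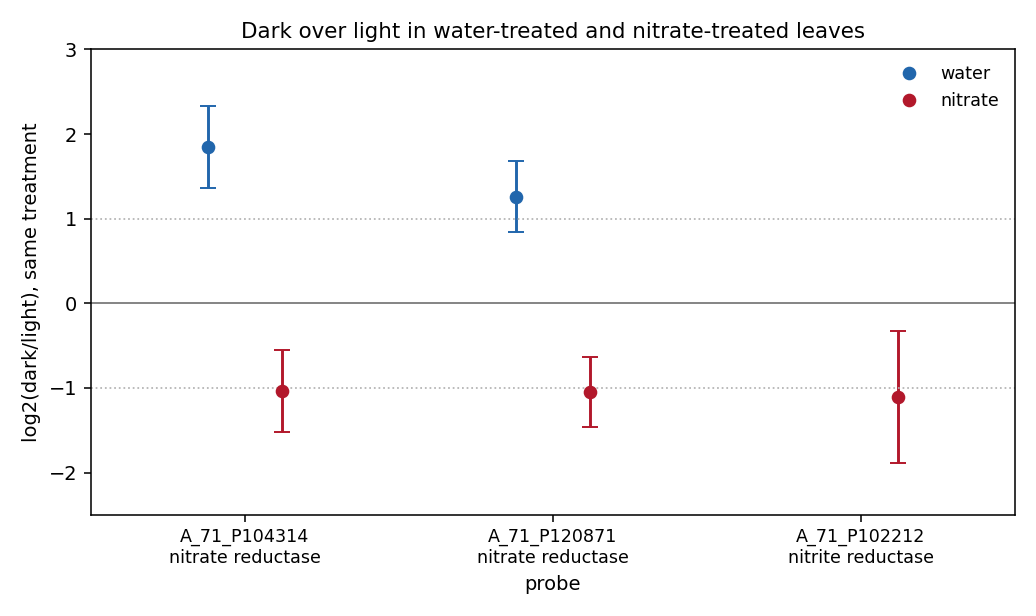
Fitted log2(dark/light) within water-treated (blue) and nitrate-treated (red) leaves, with 95% intervals, for the probes of NR and NiR; dotted lines mark -1 and 1. Water levels of NR lie above 0 and nitrate levels of all 3 probes lie below 0; NiR has no water value.

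For the NR probes the smaller response in dark thus had an upper and a lower side. The difference in the ratio is the difference with nitrate minus the difference with water, so 64.1% of that of A_71_P104314 came from the higher water level in dark and 35.9% from the lower nitrate level. For A_71_P120871 the shares were 54.7% and 45.3%. The order of the shares turned without scaling between arrays, to 38.6% from water and 61.4% from nitrate for A_71_P104314 and to 28.9% and 71.1% for A_71_P120871. In that setting the median probe was 0.56 lower on the log2 scale in dark in the water channel and 0.59 lower in the nitrate channel, the water difference was 1.11 for A_71_P104314 and 0.67 for A_71_P120871, where the call was lost, and the nitrate differences of the 3 probes were -1.77, -1.64 and -1.75.

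The array holds 3 further probes described as NR or NiR, and none of them was called with a lower ratio in dark. A_71_P120867, described after a maize NR, had log2 ratios of 1.61 and 2.05 in light and 2.36 and 1.26 in dark. It was called in light (1.83 ± 0.31, adjusted p = 0.112) although only 1 of its 2 water values was well above background. It was also called in dark (adjusted p = 0.132 by limma for the fitted ratio), with the water channel above background on neither array. There the bound over the mean of both arrays was 1.66-fold. The nitrate level was 6.84 in replicate 1 and 5.30 in replicate 2. The latter was below the mean water level used (5.34), so the bound was not shown on each array. Its difference between conditions was -0.02 ± 0.44, with a 95% interval of -1.21 to 1.18, and both calls were lost with the normexp correction (0.35 in light and 0.30 in dark).

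A_71_P122972 carries the same description as the NiR probe, rice ferredoxin-nitrite reductase, but neither of its ratios was called. Its processed signal averaged 9097 with water and 7006 with nitrate in light replicate 1, and 9800 and 9124 in light replicate 2. In dark it averaged 7012 and 6964 in replicate 1, and 7389 and 8913 in replicate 2. The channels of an array were close together throughout, with fitted log2 ratios of -0.22 ± 0.16 in light (95% interval -0.64 to 0.20) and 0.13 ± 0.16 in dark (-0.29 to 0.56), neither called. With nitrate its normalized log2 level was 12.58 and 12.69 in light and 13.14 and 13.38 in dark. The dark levels were thus the higher ones by 0.63 ± 0.13 (adjusted p = 0.00884, below the fold threshold), opposite in sign to the NiR probe. They did not overlap those in light, which held with dark above light for 34.4% of all probes. With water the levels were 12.94 and 12.77 in light and 13.14 and 13.11 in dark. These also lay higher in dark without overlap, which held for 37.9% of all probes. Which of the 2 probes matches LOC_Os01g25484, and whether they match the same transcript, was not tested, since the files hold no probe sequence. A_71_P128019, described after a rapeseed NR, was near background, with fitted log2 ratios of -0.43 ± 0.14 in light and 0.12 ± 0.14 in dark, neither called.

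Genes that serve the same reactions were described from the array's annotation, as counts. A uroporphyrinogen III methyltransferase acts in the synthesis of siroheme, a cofactor of NiR. The 1 probe of this enzyme (A_71_P103189) had log2 ratios of 4.77 and 4.28 in light and 3.40 and 2.96 in dark. It rose in light (4.52 ± 0.20, adjusted p = 0.0285) and in dark (3.18 ± 0.20, adjusted p = 0.0475), and its water level was higher in dark by 2.33 ± 0.21. Of 5 probes found by a search for synthesis of the molybdenum cofactor, which NR carries, 1 was called higher in light (2.28% of all probes were). In dark 0 were (1.81% of all probes were). The median log2 ratio was 0.00 in light and 0.11 in dark, against -0.01 for all probes in each. Among them, A_71_P119996 is described as a protein that contains the cofactor. The probe called was a CNX2 probe (A_71_P125841), for an enzyme of the first step in Arabidopsis, at 1.62 ± 0.29 in light (adjusted p = 0.117) and -0.01 ± 0.29 in dark. Another CNX2 probe (A_71_P106939) was not called, at 0.79 ± 0.23 in light and 0.11 ± 0.23 in dark. The CNX5 probe A_71_P105072 had the lowest light ratio of the list, -0.51 ± 0.29.

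Of 15 nitrate transport probes, which stand for carriers of nitrate across membranes and a partner protein of the NRT2 carriers, 1 was called higher in light (A_71_P118488, of the NRT1 family, at 1.35 ± 0.17, adjusted p = 0.0829) and 1 lower in dark (A_71_P119839, also of the NRT1 family, at -1.33 ± 0.29, adjusted p = 0.178). Of all probes 2.28% were higher in light and 1.72% lower in dark, and the call in light was lost with the normexp correction. The median log2 ratio of the 15 was 0.01 in light and -0.31 in dark. The highest and lowest light ratios among those well above background on all arrays were 0.84 ± 0.18 for an NRT1 probe (A_71_P125877) and -0.71 ± 0.20 for an NRT2 probe (A_71_P101516), neither called. Of 8 probes of 14-3-3 proteins, which bind phosphorylated NR and lower its activity, 0 were called in light or dark. In either direction 3.74% of all probes were called in light and 3.53% in dark, so 0 of 8 does not set them apart. In light 1 of them (A_71_P100913) had an unadjusted p under the threshold, as 16.1% of all probes had. It was below the fold threshold (-0.52 ± 0.13), and the highest light ratio was 0.30 ± 0.20 (A_71_P124990). Of 2 haemoglobin probes, rice haemoglobin 1 (A_71_P110515), which in plants takes part in turning over nitric oxide, rose in light (2.94 ± 0.28, adjusted p = 0.0626) and in dark (2.06 ± 0.28, adjusted p = 0.0991), and the haemoglobin 2 probe (A_71_P116160) had a ratio of 0.00 ± 0.13 in light. The 1 probe of a NIN-like factor, a family of nitrate-responsive regulators known from Arabidopsis, had 0.27 ± 0.14 in light and -0.05 ± 0.14 in dark and was not called.

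The probes whose pattern over the 4 arrays was most like each NR or NiR probe were found by the Euclidean distance between their 4 log2 ratios, among 15499 other probes with a nitrate channel well above background on all arrays. The 4 values share dye and array effects, so the distances are a description. Nearest to A_71_P104314 were a ferredoxin probe described after maize Fd VI (A_71_P103413, distance 1.44), rice ferredoxin-NADP+ reductase (A_71_P107781, 2.18) and the siroheme methyltransferase (A_71_P103189, 2.74), where the median distance was 10.3. The same 3 probes were nearest to the NiR probe, at 1.15, 0.99 and 1.08, with a median of 8.83, but these distances use NiR ratios over an unmeasured water signal, which were 2.21 and 0.92 with the normexp correction. A_71_P103413 had 5.43 and 5.51 in light and 3.05 and 3.13 in dark, and A_71_P107781 had 5.19 and 4.69 in light and 3.16 and 3.0 in dark.

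Nearest to A_71_P120871 were a chloride channel of the CLC family (A_71_P120164, distance 0.57), an alpha-amylase (A_71_P120152, 0.84) and a probe described after the LHY protein of bean (A_71_P104965, 1.10), against a median distance of 4.66. The water channel of A_71_P120152 was well above background on only 2 of the 4 arrays, and that of A_71_P120164 and A_71_P104965 on all 4. A_71_P120164 had log2 ratios of 2.79 and 2.75 in light and 0.68 and 0.89 in dark. The 2 NR probes lay 5.94 apart.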

How the data were processed

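Leaf RNA of both treatments was co-hybridised to 2-colour rice arrays from Agilent. Light and dark each had 2 biological replicates, and the second had its dyes exchanged. The authors deposited scanner output with intensity values for each of 44407 spots per array (1417 of them controls) and a log10 ratio of Cy5 over Cy3, in which Feature Extraction had subtracted a fitted background and balanced the dyes. The file headers give version 9.5.3.1, while the methods name an earlier version. A second deposited table holds the ratio of each probe after lowess in GeneSpring, with 158 to 3018 probes per array missing. Its values were used for the direction and as an alternative.

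Processed signals were turned to log2(nitrate/water), corrected by a loess curve per array (span of 0.3 in 4 iterations), averaged over the 2 spots of a probe and fitted by limma 3.58.1 in R 4.3.3 on all 4 arrays. Control and outlier spots were left out. Dark and light leaves of 1 treatment were compared in limma's separate-channel fit after Aquantile normalization between arrays, with statmod 1.5.0. It covered 21493 probes. P-values were adjusted by Benjamini-Hochberg over all probes. A probe was called at 1 or more in size on the log2 scale together with an unadjusted p not above 0.05. The study states these thresholds in its results, but does not describe its p-value as limma's. The labels give no replicate number within a condition. The fits were tested on simulated data. All simulated arrays were built from the brightness of a single array, without added noise for dim signals. They therefore could not test the scaling between arrays or ratios over an unmeasured water signal.

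The members and the gene lists were chosen with earlier results of these data known. The genes named are the 3 probes, every other probe described as nitrate or nitrite reductase, the lists as counts with called probes and the highest and lowest light ratio among probes well above background, and the 3 nearest probes of each member. Alternatives were another background correction (normexp), other normalizations within and between arrays, the log10 ratios, the deposited ratios, outlier spots kept, dim probes left out, dye orientation as a block, no moderation, the adjusted p, each condition or channel alone, and leaving out each array. Figures were drawn with matplotlib 3.10.9. Enzyme activity, qRT-PCR and the tables of fold changes of the study were not analysed here.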

Additional observations from a re-analysis of the deposited data

Results flagged for a closer look

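The nitrate response was set against itself in light and dark by a test of the difference. The 2 nitrate reductase probes passed the unadjusted thresholds, and the value of nitrite reductase is given without a reading. Dark minus light, the log2 ratio differed by -2.88 for nitrate reductase A_71_P104314 (unadjusted p = 0.000171, adjusted p = 0.0992 by limma), by -2.31 for nitrate reductase A_71_P120871 (0.000144 and 0.0992) and by -1.53 for nitrite reductase A_71_P102212 (0.0147 and 0.239). Every light array had a higher ratio than every dark array for each of them. The share of all probes with this order was not counted, so the order is not read as a trait of these probes. The nitrite reductase value rests on a water signal that was not well above background on any array, so its difference was not measured. No probe of the array passed the adjusted threshold in this comparison.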

How the results depend on the processing

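Over 178 values of the 3 probes under the alternatives, 163 kept their direction and side of the threshold, 15 lost the call and 0 reversed. Several alternatives leave the fitted ratio itself unchanged and could not have reversed it. Among them are the dye block, no moderation, the adjusted p, each condition alone and dim probes left out. The counts therefore do not measure how stable the direction is. With the normexp background correction the nitrite reductase ratio was 2.21 in light and 0.92 in dark (adjusted p = 0.0144; 0.000539 to 0.491 over all alternatives) and its nitrate-channel difference -0.65, and its lower bounds, a check added after seeing the data, were 4.19-fold in light and 1.90-fold in dark. The offset of this correction lowers the ratios of dim probes by construction. Without moderation the nitrite reductase difference between conditions (-1.53) was not called. With the adjusted p, calls were lost for the nitrite reductase ratio in dark (3.55) and for the 3 differences between conditions (-2.88, -2.31 and -1.53). With no normalization between arrays the water difference of A_71_P120871 was 0.67. The share of calls that were higher in dark then fell from 50.4% to 19.2% with water and from 49.2% to 19.8% with nitrate. Leaving out each array in turn gave -2.03 to -1.03 for the nitrite reductase difference between conditions, with 2 of 4 called. In the nitrate channel it gave -1.31 to -0.75 for A_71_P104314 (3 of 4 called), -1.18 to -0.90 for A_71_P120871 (2 of 4) and -1.23 to -0.98 for nitrite reductase (2 of 4). The cause of these changes was not tested. Dye orientation as a replicate block left the ratios as they were (6.38, 3.14 and 5.08 in light, 3.5, 0.84 and 3.55 in dark) and changed no unadjusted call of the 3 probes, while no adjusted p passed (0.110, 0.127 and 0.144 in light, 0.164, 0.213 and 0.164 in dark). Counts of called probes over the array moved with the setting. In light, 803 became 271 with normexp and 67 with the adjusted p. In dark, 759 became 222 with normexp, 48 with the adjusted p, 494 without moderation and 1468 without dark replicate 2. For the difference, 1400 became 501, 0, 693 and 2286 in the same order. For the water and nitrate channels, 6236 became 3882 and 6740 became 4304 with normexp. With normexp, no nitrate transport probe was called higher in light (0 of 15).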
